A study of Mus musculus with 24 samples.

Results

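The 38 genes described here mark macrophages and other myeloid cells, the phagocytes that enter damaged muscle, and were taken by gene symbol from the 25369 genes listed for each library. Each symbol matched 1 row, and all 38 passed the filter on low counts that left 14789 genes for testing. They fall by role into markers of resident macrophages (Cd163, Mrc1, Lyve1, Folr2, F13a1), markers of infiltrating monocytes (Ccr2, Ccl2, Cd14), chemokines (Ccl6, Ccl7, Ccl8, Ccl9, Pf4), growth factor and chemokine receptors (Csf1r, Cx3cr1), adhesion and lineage molecules (Adgre1, Itgam, Itgb2), Fc receptors (Fcgr1, Fcgr2b, Fcgr3, Fcer1g), lysosomal and killing proteins (Lyz2, Ctss, Mpeg1, Laptm5), pattern and costimulatory receptors (Clec7a, Cd86, Cd84), small membrane and calcium-binding proteins (Ms4a7, Ms4a6c, Aif1), proteins of all leukocytes (Ptprc, Cd53, Cd52, Coro1a) and transcription factors (Spi1, Irf8). RNA came from snap-frozen left quadriceps of mice at 25 weeks, either WT or carrying Lama2-CMD, a mutation of the laminin alpha 2 gene used to model a congenital muscular dystrophy. The backgrounds were B6 (strain label C57BL/6J), 67 (CMD-67), 87 (CMD-87) and D2 (DBA/2J); the design calls the middle pair BXD-67 and BXD-87, which are recombinant inbred strains bred from B6 and D2. Each of the 8 groups held 3 libraries, with library numbers 1 to 3 for B6 WT, 4 to 6 for B6 CMD, 7 to 9 for 67 WT, 10 to 12 for 67 CMD, 13 to 15 for 87 WT, 16 to 18 for 87 CMD, 19 to 21 for D2 WT and 22 to 24 for D2 CMD. The labels state neither the Lama2 allele nor whether a library is 1 animal, so p-values measure the spread between these libraries. By label, 67 CMD and D2 CMD held 3 females each, while 67 WT held 1 male and D2 WT 2 males, and both 87 and B6 had 1 male in WT and 2 in CMD, so labelled sex and genotype were partly confounded.

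Resting skeletal muscle holds macrophages that sit between fibres and express scavenger and uptake receptors such as CD163, the mannose receptor and LYVE1. After injury, circulating monocytes that carry CCR2 follow its ligand CCL2 into the tissue, where they mature, take up debris and change from an inflammatory to a repair programme, with rising CX3CR1. In dystrophic muscle, fibres are injured again and again, and macrophages of mixed programme persist among them.

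Many myeloid genes depend on PU.1, the factor encoded by Spi1, which binds purine-rich DNA around the letters GGAA. The windows printed here are the 250 bases before the RefSeq start (GRCm38.p6) of the 3 members with the smallest p in the average CMD effect (Cx3cr1, Mpeg1, Cd84) and of Cd163, which was called lower. They are shown because these genes moved in opposite directions, and capitals mark GGAA, or TTCC for the same letters on the other strand.
Cx3cr1, chr9:120068297-120068546, minus strand: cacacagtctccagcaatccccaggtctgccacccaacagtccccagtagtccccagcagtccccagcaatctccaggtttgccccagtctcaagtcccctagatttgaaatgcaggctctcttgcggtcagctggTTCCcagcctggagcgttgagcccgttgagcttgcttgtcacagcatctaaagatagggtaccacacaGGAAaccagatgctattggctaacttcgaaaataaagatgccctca
Mpeg1, chr19:12460520-12460769, plus strand: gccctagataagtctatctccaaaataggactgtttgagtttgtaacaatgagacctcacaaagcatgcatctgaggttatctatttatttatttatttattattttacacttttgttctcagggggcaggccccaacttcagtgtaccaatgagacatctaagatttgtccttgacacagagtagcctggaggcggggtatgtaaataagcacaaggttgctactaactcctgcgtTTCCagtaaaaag
Cd84, chr1:171839447-171839696, plus strand: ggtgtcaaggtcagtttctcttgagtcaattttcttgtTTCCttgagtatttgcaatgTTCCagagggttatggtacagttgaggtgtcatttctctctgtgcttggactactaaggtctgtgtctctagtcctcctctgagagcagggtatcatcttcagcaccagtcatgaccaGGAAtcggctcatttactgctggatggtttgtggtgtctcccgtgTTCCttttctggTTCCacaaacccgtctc
Cd163, chr6:124304401-124304650, plus strand: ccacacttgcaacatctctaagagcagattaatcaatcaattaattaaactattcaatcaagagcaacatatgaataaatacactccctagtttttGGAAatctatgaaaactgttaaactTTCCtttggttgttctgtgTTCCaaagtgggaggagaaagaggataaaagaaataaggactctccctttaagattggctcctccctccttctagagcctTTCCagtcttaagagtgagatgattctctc
The Cx3cr1 window held 2 matches, Mpeg1 1, Cd84 5 and Cd163 4. Of the members, 28 had an entry, with 36 windows in all. GGAA was in 36 of these 36 windows and in 93.4% of all 32851 windows of this length. The longer GAGGAA, which contains GGAA, was in 15 member windows (41.7%) against 23.3% of all, and GGAAGT, which overlaps both, in 14 (38.9%) against 19.7%. Their joint form GAGGAAGT was in 1 member window (2.78%) against 2.44%. TATAAA was in 16.7% of member windows and 12.4% of all, and TGACTCA in 5.56% and 4.46%. An interferon-response and an NF-kB consensus, given by name, were in 0 member windows, and in 0.207% and 0.0852% of all. Both strands were searched for these 8 letter strings, which were settled after several had been counted, and no binding was measured.

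Total exon reads ran from 32292613 to 51715975 per library, and the 38 genes together took 3948 to 34554 of them. Levels are given as CPM, the gene's share of all exon reads after TMM scaling of the library size, unless TPM is named. TPM is the authors' value, which is divided by exon length and carries no TMM scaling. Where values of a strain are set against each other, the 3 WT libraries come first and the 3 CMD libraries second, in order of library number. Reads of Y-linked genes matched the sex label in 20 libraries and went against it in 4, all D2: the counts were 1 and 0 in libraries 19 and 21, both male by label, and 4927 and 4858 in libraries 22 and 24, both female by label. No sex term was therefore used in the main model. Over the strains together, Lama2 lay between 12.9 and 33.8 CPM in CMD and between 23.8 and 50.3 CPM in WT libraries, which overlap. Within strains, the genotypes were apart in B6 (36.5 to 50.3 CPM in WT, 16.04 to 23.9 in CMD). They were also apart in 87 (27.4 to 35.8 in WT, 12.9 to 19.5 in CMD). In 67 and D2 they overlapped. In edgeR Lama2 was called lower in B6, in 87 and on average (log2 fold change -0.56), and was not called in 67 (0.04) or D2 (-0.37).

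Libraries stood apart within the CMD groups. D2 CMD libraries 22 and 24 held 24.1 and 20.3 CPM of Marco, a scavenger receptor, against at most 0.143 CPM in each of the other 22 libraries, and 71.1 and 55.2 CPM of Jchain, the joining chain of antibodies, against at most 7.73. Among all tested genes, 16 were at least 4-fold higher in both than in any other library, at 1 CPM or more. Adgre1 was the 1 member among them. Marco did not pass the filter on low counts, so it is not counted, nor is any other gene the filter removed. The highest of the 16 by this ratio were Slc13a3, a carboxylate transporter (34.7 and 47.2 CPM, at most 0.672 elsewhere), and Cxcl13, a B cell chemokine (42.7 and 52.8, at most 3.01 elsewhere), both chosen after their values were seen. Library 23, the other D2 CMD library, had 0 reads of Marco and the lowest level of its group for 37 of the 38 members. Runx1, which was raised in CMD in each strain, was 2.54, 1.59 and 2.33 CPM in D2 WT and 16, 40.8 and 40.2 CPM in D2 CMD. Of the 87 CMD libraries, 16 was lowest for 30 members and 18 highest for 33. For these ranks within a group the share over all genes is not given. Library 16 lay below every WT library of its strain for 26 members (40.6% of all genes) and above for 3 (37.3%). Library 18 lay above them for 23 members (35.9%) and below for 3 (34.6%). D2 results are therefore given with and without libraries 22 and 24; what set these libraries apart was not tested.

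Over the strains together, most of the myeloid genes were higher in CMD muscle, and the resident markers were not. In the CMD effect averaged over the 4 strains, 29 of the 38 members were higher and 2 lower; of all tested genes 25.4% were called higher and 23.4% lower. The median log2 fold change of the members was 1.09, against 0.03 over all tested genes, and 34 of the 38 were above 0, against 53.0% of all. The 2 lower members were the scavenger receptors Cd163 and Lyve1. Without libraries 22 and 24, which left 1 D2 CMD library, the median was 0.75 and 33 of the 38 were above 0. Adgre1, Itgam, Spi1, Ccl9 and Cd86 were no longer called in this fit. In bulk tissue, fewer cells of a type and less RNA per cell cannot be told apart.

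**Figure D1:**
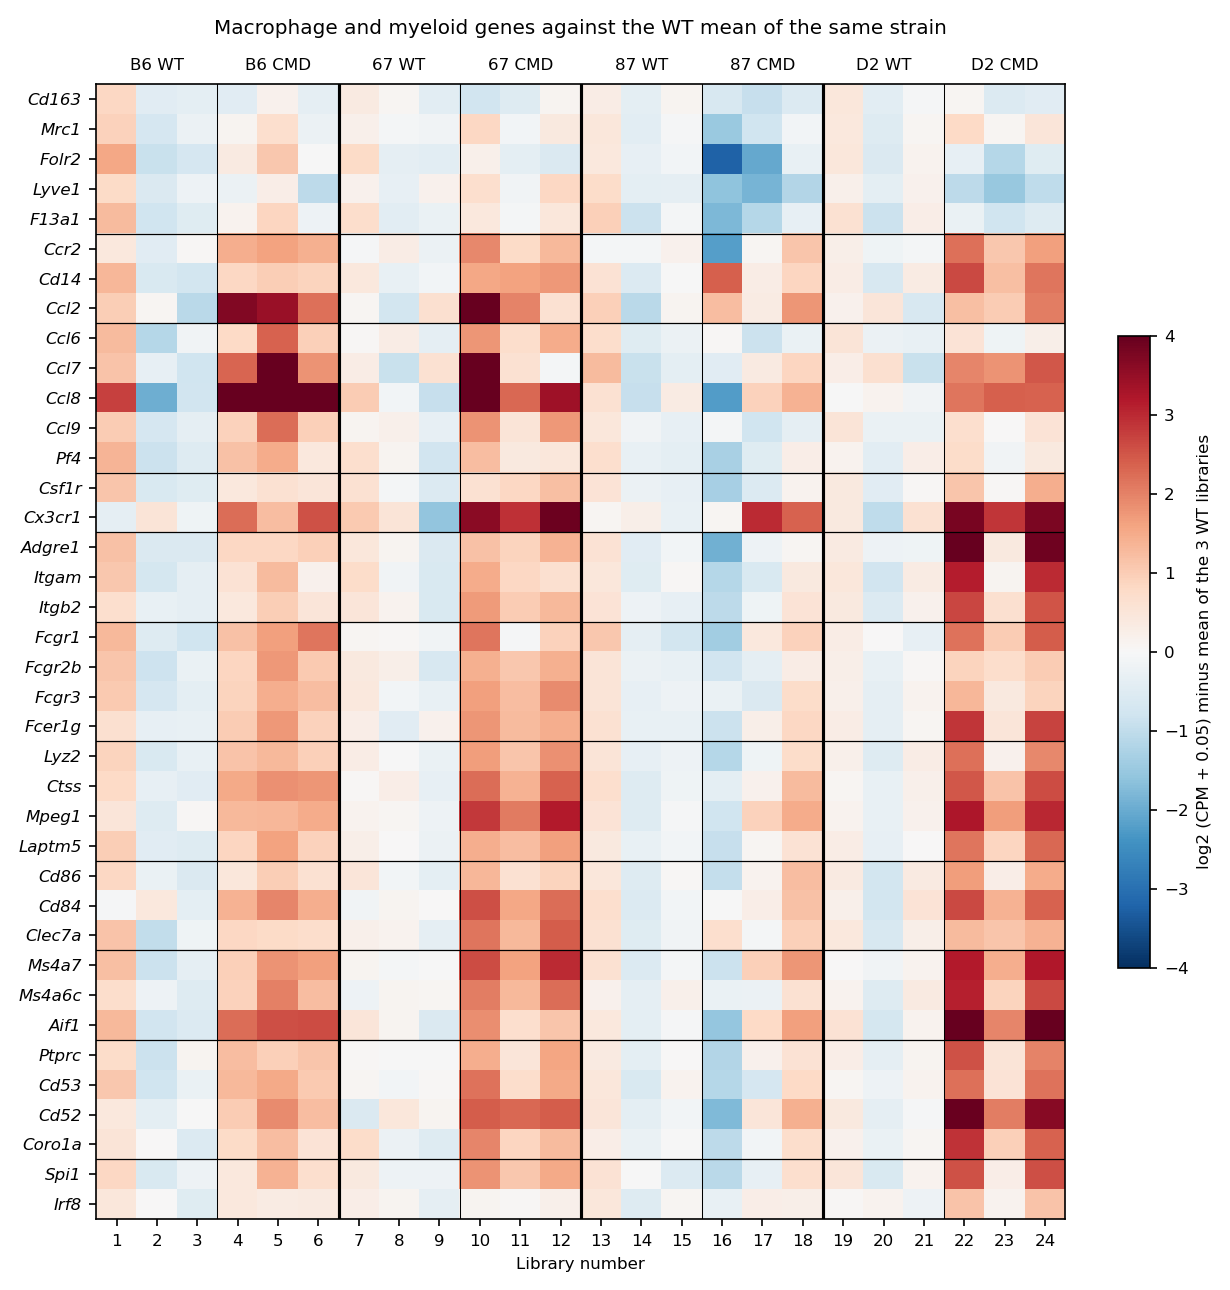
Level of each of the 38 genes (rows, grouped by role from resident markers at the top to transcription factors at the bottom) in each of the 24 libraries (columns), as log2 of CPM plus 0.05 minus the mean of the 3 WT libraries of the same strain; colours stop at 4 in either direction. Most rows were red in B6, 67 and D2 CMD libraries, the top 5 rows were not, and library 16 was blue for most genes.

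The strains differed in how many members passed the threshold. In B6, 10 members were higher in CMD (8.07% of all genes) and 0 were lower (10.4% of all). In 67, 21 were higher (11.4% of all) and 0 lower (10.3%). In 87, 1 was higher (Cx3cr1; 11.5% of all) and 1 lower (Lyve1; 9.38%). In D2, 22 were higher (11.2%) and 1 lower (Lyve1; 9.03%). At an unadjusted p under 0.05, edgeR gave 0 lower members in B6 and 0 in 67, and DESeq2 gave 0 in both after adjustment. Median log2 fold changes of the members were 1.01 in B6, 1.42 in 67, 0.02 in 87 and 1.88 in D2, where those of all tested genes lay between 0.00 and 0.03. Leaving out 1 library of the strain moved the B6 median to between 0.75 and 1.64 (highest without library 1) and the 87 median to between -0.43 (without library 18) and 0.32 (without library 16). The D2 median was 1.25 with a sex term from Y-linked reads. By these reads the only male D2 libraries were 22 and 24, so within D2 sex cannot be told apart from what set these libraries apart. All 3 CMD libraries lay above all 3 WT libraries for 15 members in B6 (19.7% of all genes), 26 in 67 (22.2%), 0 in 87 (15.5%) and 25 in D2 (21.4%).

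These counts changed when single libraries were left out. The B6 count was 19 without WT library 1 (7.52% of all genes called higher), 1 without library 2 (3.33%), 0 without library 3 (5.27%), 3 without library 5 (4%) and 5 without library 6 (5.17%). In 67 it was 9 without WT library 8 or 9 (7.57% and 6.45% of all genes), 10 without library 10 (7.88%) and 12 without library 12 (8.28%). In D2 it was 14 without WT library 20 (4.99%) and 1, Cx3cr1, without libraries 22 and 24 (5.68%), where the median was 0.55 and the single library left was taken to vary like the other groups. With libraries 16 and 23 left out, B6 had 16 (12%) and 87 had 2 (7.96%). The share over all genes therefore moved as well as the count of members. Members called in a strain under every setting tried were Cx3cr1, Ctss, Mpeg1, Cd52, Cd84, Ms4a7, Ms4a6c and Clec7a in 67 (8 of 21) and Cx3cr1 in D2 (1 of 23), with 0 in B6 and 0 in 87. For the average effect, 25 of the 31 calls held under every setting. How many calls held over all genes is not given, so these counts are not shown to be particular to the members.

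**Figure D2:**
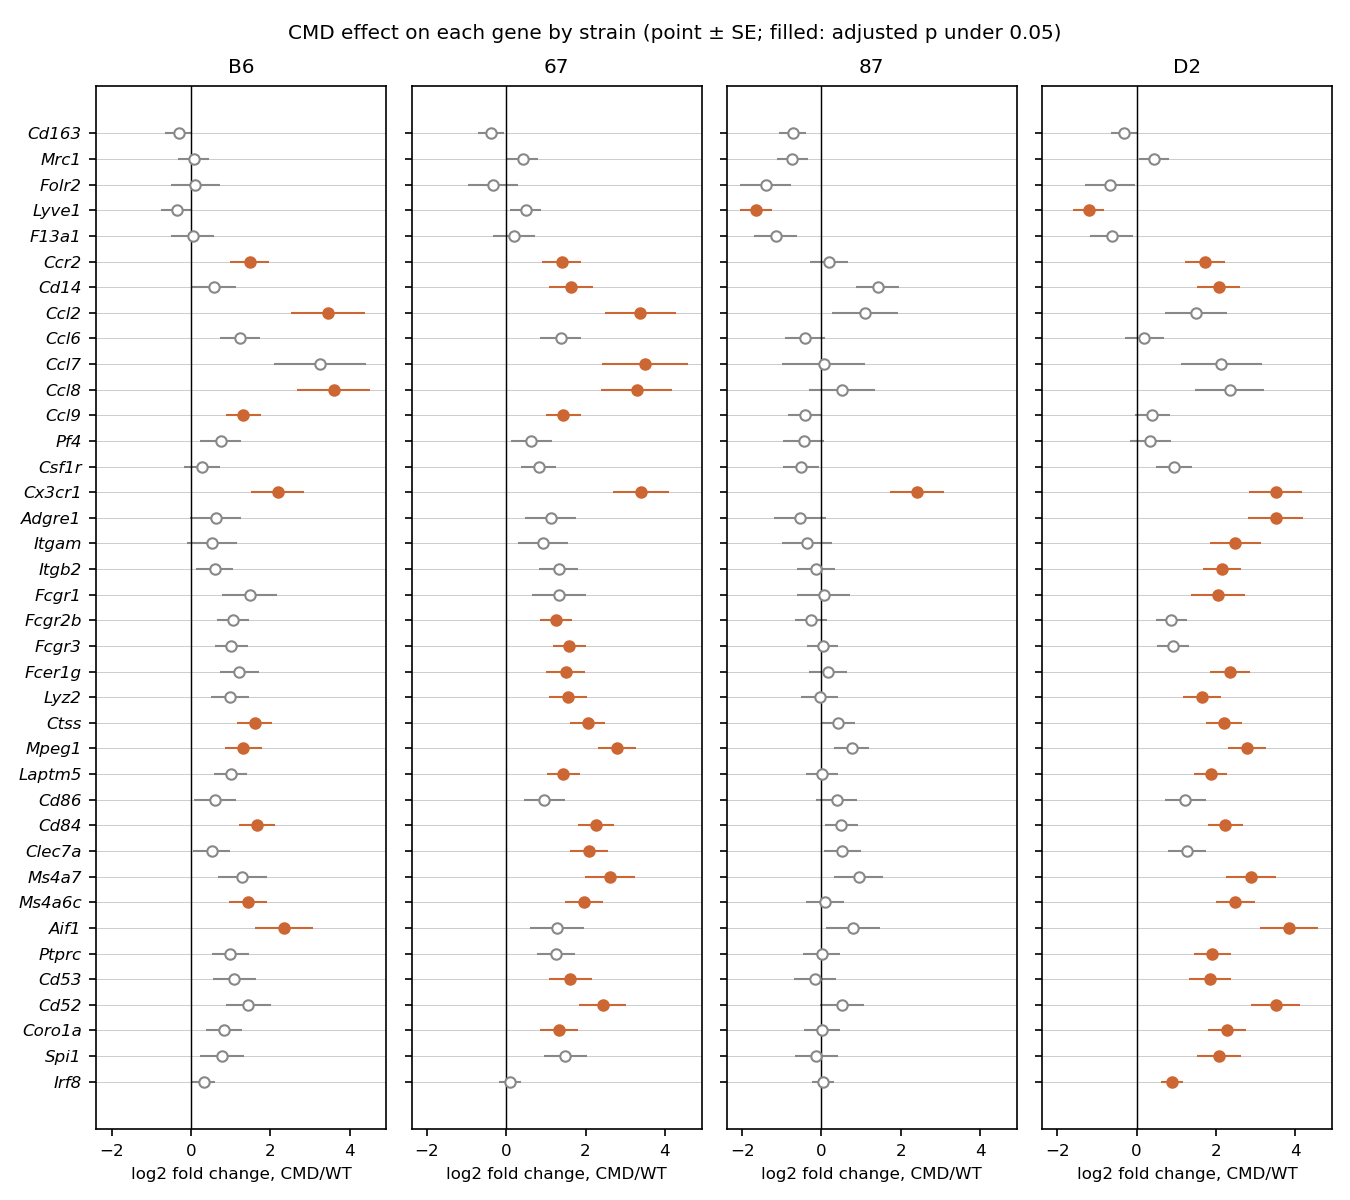
Log2 fold change of CMD over WT (horizontal axis, point ± SE from edgeR) for each gene (vertical axis, same order as the heat map) in B6, 67, 87 and D2; filled orange points passed an adjusted p of 0.05, open grey points did not. Filled points numbered 10, 21, 2 and 23 from left to right, and the resident markers at the top lay near or below 0 in each panel.

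Of the 5 resident markers, 2 fell on average and the other 3 were not called in the model without a sex term. Cd163, the haemoglobin scavenger receptor, was 19.1, 7.8 and 8.25 CPM in B6 WT and 7.8, 12.1 and 8.37 in B6 CMD, 11.4, 9.28 and 6.58 against 5.15, 6.18 and 9.58 in the 67 groups, 12.2, 7.51 and 10.7 against 6.34, 5.2 and 6.83 in the 87 groups, and 13.3, 7.19 and 9.45 against 10.3, 6.55 and 7.02 in the D2 groups. WT and CMD overlapped in B6, 67 and D2 and did not in 87, where every CMD library was lower. The averaged log2 fold change was -0.44 ± 0.17 (SE; edgeR, adjusted p = 0.037), and in no strain alone was it called. This call was lost in 14 of 32 alternatives, 12 of them without 1 library (highest adjusted p = 0.084).

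Lyve1, a hyaluronan receptor of perivascular macrophages and lymphatic vessels, fell in 87 and D2. It was 7.12, 3.19 and 3.31 CPM in 87 WT and 1.34, 1.12 and 1.87 in 87 CMD, with no overlap. In D2 the values were 6.96, 4.66 and 6.85 for WT and 2.92, 2.07 and 2.99 for CMD, again without overlap. In B6 (7.56, 2.93 and 3.84 against 3.76, 5.32 and 2.09) and 67 (3.79, 2.68 and 3.78 against 5.39, 3.04 and 6.05) the groups overlapped. The log2 fold changes were -1.65 ± 0.41 in 87 (adjusted p = 0.0078), -1.21 ± 0.39 in D2 (0.036) and -0.68 ± 0.20 on average (0.0077). The 87 call was lost without WT library 13, and the D2 call without any 1 of libraries 19, 21, 22, 23 and 24. The lymphatic genes Prox1, a transcription factor, and Flt4, a growth factor receptor, had averaged log2 fold changes of 0.21 and 0.03 (adjusted p = 0.55 and 0.87). The 6 lymphatic genes on the list moved differently by strain: in 87, 0 of 6 log2 fold changes were above 0 (median -0.21, lowest -1.39 for Mmrn1) with 0 called in edgeR, in D2 3 of 6 were above 0 (median 0.10), and in 67 6 of 6 (median 1.001). Their summed level was 14.9 to 24.6 CPM in 87 WT and 9.38 to 19.7 CPM in 87 CMD. Their part in the Lyve1 result was not tested.

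For the remaining resident markers the genotypes overlapped. Mrc1, the mannose receptor, was 30.3, 10.1 and 13.5 CPM in B6 WT, 17.3, 25.4 and 13.6 in B6 CMD, 18.4, 15 and 14.4 in 67 WT, 28.1, 14.7 and 20.7 in 67 CMD, 20.7, 11.3 and 14.6 in 87 WT, 5.37, 8.68 and 13.8 in 87 CMD, 18.8, 9.89 and 15 in D2 WT and 24.7, 14.9 and 19.6 in D2 CMD. WT and CMD overlapped in all 4 strains, and the averaged log2 fold change was 0.04 ± 0.19 (adjusted p = 0.87). Folr2, a folate receptor, had 11, 1.97 and 2.31 against 4.77, 7.94 and 3.69 CPM in B6 WT and CMD, 7.81, 3.57 and 3.37 against 5.22, 3.49 and 3.05 in 67, 7.22, 4.29 and 4.98 against 0.524, 1.26 and 4.35 in 87, and 7.61, 3.72 and 6.12 against 4.46, 2.51 and 3.94 in D2. Library 16 was lowest of the 24. The averaged log2 fold change was -0.58 ± 0.31 (0.14). F13a1, the clotting transglutaminase made by tissue macrophages, was 34.8, 8.25 and 10.2 against 15.9, 26.2 and 12.5 CPM in B6, 21.7, 9.76 and 10.9 against 17.6, 12.5 and 18.3 in 67, 29.6, 8.43 and 14.6 against 4.38, 6.94 and 12.4 in 87, and 25.6, 9.19 and 20.3 against 14.1, 9.63 and 11.8 in D2, WT before CMD. The groups overlapped in all 4 strains, and the averaged log2 fold change was -0.39 ± 0.27 (0.24). With a sex term Folr2 and F13a1 were called lower in 87, at -1.90 and -1.42 with sex as labelled (adjusted p = 0.0198 and 0.0199) and at -1.89 and -1.38 with sex from Y-linked reads (0.021 and 0.035). Folr2 was also called lower on average with sex from Y-linked reads (-0.72, 0.034), and in 87 and on average without library 18.

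Infiltrating markers all rose on average. Ccr2, the receptor that draws monocytes to CCL2, was 3.22, 1.73 and 2.52 CPM in B6 WT and 6.65, 7.55 and 6.62 in B6 CMD, 2.64, 3.35 and 2.31 against 10.6, 4.65 and 6.74 in 67, 3.36, 3.4 and 4.04 against 0.734, 3.79 and 7.77 in 87, and 1.51, 1.13 and 1.21 against 6, 2.74 and 4.05 in D2. CMD lay wholly above WT in B6, 67 and D2, and in 87 library 16 was lowest and library 18 highest. Its log2 fold change was 1.20 ± 0.25 on average (adjusted p = 0.00055) and was called in B6 (1.48), 67 (1.40) and D2 (1.73), each call lost without 3 or more of the single libraries of its own strain. The average call held when libraries 22 and 24 were left out.

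Ccl2, the ligand of CCR2, was scarce in WT muscle. Values were 0.269, 0.12 and 0.0259 CPM in B6 WT and 2.03, 1.71 and 0.687 in B6 CMD, 0.187, 0.0836 and 0.299 against 4.93, 0.827 and 0.289 in 67, 0.596, 0.108 and 0.312 against 0.734, 0.365 and 1.09 in 87, and 0.69, 0.869 and 0.375 against 1.46, 1.29 and 2.69 in D2. The groups were apart in B6 and D2 and overlapped in 67, where library 10 held most of the signal, and in 87. The averaged log2 fold change was 2.36 ± 0.43 (adjusted p = 0.00018), with 3.45 ± 0.94 in B6 (0.016) and 3.38 ± 0.89 in 67 (0.011). The B6 call was lost without library 2 or 3, and the 67 call without library 8 or 10.

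Cd14, the lipopolysaccharide co-receptor of monocytes, was 3.36, 0.837 and 0.752 CPM in B6 WT and 2.32, 2.59 and 2.42 in B6 CMD, 1.65, 0.976 and 1.12 against 3.65, 3.8 and 4.13 in 67, 2, 0.891 and 1.31 against 7.13, 1.66 and 2.46 in 87, and 2.38, 1.23 and 2.43 against 12.2, 4.46 and 8.73 in D2. WT library 1 exceeded all B6 CMD libraries, and library 16, lowest of its group for 30 members, was the highest outside D2 CMD. The averaged log2 fold change was 1.42 ± 0.27 (adjusted p = 0.00029), with calls in 67 (1.63) and D2 (2.07) and a value of 1.41 ± 0.55 in 87 (0.071). The 67 call was lost without any 1 of libraries 7 to 12, and the D2 call without library 20. The D2 value without libraries 22 and 24 was 1.12 (adjusted p = 0.32).

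The balance between the sets separated the genotypes in every library. Summed TPM of the 5 resident markers divided by that of the 3 infiltrating markers lay between 5.07 and 11.5 in the 12 WT libraries (median 8.72) and between 0.813 and 4.51 in the 12 CMD libraries (median 2.73), with no overlap. The mean ratio was 10.2 ± 1.30 in B6 WT and 3.54 ± 0.874 in B6 CMD (SD, n = 3), 9.35 ± 1.84 and 2.74 ± 1.09 in 67, 8.35 ± 0.664 and 2.15 ± 1.16 in 87, and 7.08 ± 1.75 and 1.57 ± 0.337 in D2. On the log2 scale the ratio was lower in CMD by 1.55 in B6, 1.84 in 67, 2.16 in 87 and 2.16 in D2, beyond the SD of either group (0.117 to 1.04). In 87 the value was 1.56 without library 16, and in D2 it was 1.83 without libraries 22 and 24. Summed TPM gives most weight to the markers highest in TPM: in library 16, Cd14 was 7.52 of the 9.27 infiltrating TPM and Ccr2 0.188. As a difference of mean log2 CPM between the sets, library 16 (0.683) was close to libraries 10 (0.701) and 24 (0.651). On that scale WT libraries lay at 2.57 or above and CMD libraries at 2.16 or below. The split was fixed by the choice of genes, so no test was made.

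Each sum was also compared between genotypes in TPM, which carries no TMM scaling. In D2 the TMM factors were 1.01, 0.950 and 0.969 in WT and 1.06, 1.33 and 1.15 in CMD, so TPM ran higher against CPM in CMD. In CPM the D2 resident sums were 34.7 to 72.3 in WT and 35.6 to 56.5 in CMD. The D2 infiltrating sums were 3.23 to 4.58 CPM in WT and 8.49 to 19.7 CPM in CMD. Resident TPM averaged 31.7 ± 22.02 in B6 WT and 28.2 ± 10.2 in B6 CMD, 25.7 ± 9.65 and 29.9 ± 6.57 in 67, 31.2 ± 16.04 and 12.3 ± 6.20 in 87, and 33.1 ± 12.6 and 30.2 ± 3.84 in D2. Infiltrating TPM averaged 3.11 ± 2.14 and 7.89 ± 1.44 in B6, 2.70 ± 0.522 and 12.6 ± 7.46 in 67, 3.70 ± 1.72 and 6.60 ± 2.90 in 87, and 4.58 ± 0.810 and 20.2 ± 6.12 in D2, WT before CMD (SD, n = 3). In B6, 67 and D2 the resident means differed by less than their spread while the infiltrating means were higher in CMD; in 87 the resident mean was lower in CMD as well. Fibroblast genes were lower there too: 0 of 6 log2 fold changes in 87 were above 0 (median -0.77, with Pdgfra called lower), and their sum was 457.8 to 577.6 CPM in 87 WT against 130.4 to 446.3 CPM in 87 CMD. Of 7 mast cell genes, 2 (Cpa3, Cma1) were called lower in 87, with sums of 21.4 to 23.5 CPM in WT and 11.98 to 14.9 CPM in CMD. The part of these cells in the 87 values was not tested. The ratio was 1.95 in D2 CMD library 23, and 1.45 and 1.31 in libraries 22 and 24.

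**Figure D3:**
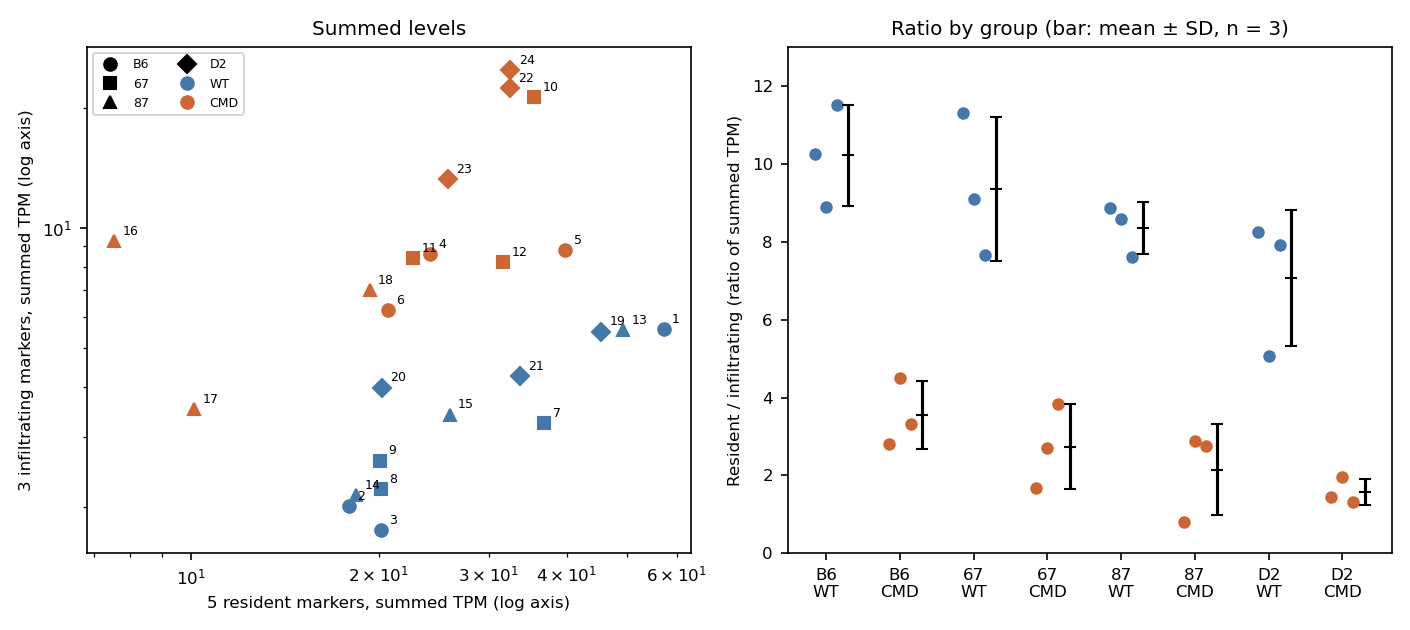
Left, summed TPM of the 5 resident markers (horizontal, log axis) against that of the 3 infiltrating markers (vertical, log axis) for the 24 libraries, numbered, with WT in blue, CMD in orange and a symbol for each strain. Right, their ratio per library by group with mean ± SD (n = 3); the WT libraries lay at 5.07 or above and the CMD libraries at 4.51 or below.

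Chemokines split by gene. Ccl8, a monocyte attractant made by macrophages, was 1.98, 0.0299 and 0.13 CPM in B6 WT and 6.29, 11.4 and 7.46 in B6 CMD, 1.71, 0.753 and 0.408 against 14.9, 4.24 and 9.02 in 67, 2.79, 0.918 and 2.25 against 0.341, 3.43 and 4.76 in 87, and 0.979, 1.09 and 0.895 against 4.48, 5.34 and 5.2 in D2. In 11 of the 12 CMD libraries it exceeded every WT library of the same strain; library 16 was the exception. Log2 fold changes were 2.44 ± 0.43 on average (adjusted p = 0.00015), 3.60 ± 0.92 in B6 (0.012) and 3.29 ± 0.89 in 67 (0.014). The B6 call was lost without library 2 or 3, and the 67 call without library 8, 9 or 10. Ccl7, its neighbour in function, rose by 2.24 ± 0.54 on average (0.0020), but its 67 CMD libraries held 8.99, 0.414 and 0.237 CPM, most of it in library 10. Its 67 call was lost without library 7, 8, 9 or 10, with an adjusted p of up to 0.89.

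Ccl9, a myeloid chemokine, was 6.65, 2.03 and 2.49 CPM in B6 WT and 6.16, 15.3 and 6.34 in B6 CMD, 3.33, 3.6 and 2.45 against 10.7, 4.45 and 10.3 in 67, 9.01, 5.94 and 5.21 against 6.21, 3.71 and 5.13 in 87, and 4.49, 2.56 and 2.6 against 4.98, 3.17 and 4.53 in D2. The CMD libraries were wholly above WT in 67 only. It was called on average (0.68, adjusted p = 0.014), a call lost without libraries 22 and 24 (0.071), in B6 (1.32) and in 67 (1.44). The B6 call was lost without library 2, 3 or 5, and also without 22 and 24, and the 67 call without library 7, 8, 9, 10 or 12. Its close relative Ccl6 missed the threshold on average (0.60 ± 0.25, 0.055). Pf4, platelet factor 4, which macrophages also make, had 0.32 ± 0.26 (0.32). The platelet gene Ppbp was at most 0.556 CPM in any library.

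Cx3cr1, the fractalkine receptor that monocytes gain as they mature, had the smallest p of the 38. It was 0.269, 0.538 and 0.311 CPM in B6 WT and 1.88, 0.91 and 2.34 in B6 CMD, 0.427, 0.279 and 0.0272 against 2.75, 1.7 and 3.39 in 67, 0.286, 0.324 and 0.208 against 0.288, 2.47 and 1.6 in 87, and 0.534, 0.169 and 0.624 against 6.1, 3.17 and 5.96 in D2. In 11 of 12 CMD libraries it lay above every WT library of its strain, with library 16 inside the WT range. The log2 fold change was 2.87 ± 0.34 on average (adjusted p = 2.1e-06), 2.18 ± 0.68 in B6 (0.031), 3.40 ± 0.71 in 67 (0.0026), 2.41 ± 0.69 in 87 (0.018) and 3.50 ± 0.67 in D2 (0.0019), the only member called in all 4 strains. Without libraries 22 and 24 the D2 value was 2.80 (adjusted p = 0.037). The 87 call was lost without library 13, 15 or 17, and the B6 call without library 1, 2, 3, 4 or 6.

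Csf1r, the receptor for the growth factor on which macrophages depend, was not called in the model without a sex term. It was 36.7, 11.2 and 12.3 CPM in B6 WT and 23, 26 and 23.9 in B6 CMD, 23, 14 and 10.3 against 22.9, 26.3 and 34.4 in 67, 26, 14.9 and 14.1 against 6.97, 12.1 and 19.3 in 87, and 25.5, 14.3 and 20.3 against 42.5, 20 and 53 in D2. The averaged log2 fold change was 0.38 ± 0.22 (adjusted p = 0.16), and WT library 1 alone was above all B6 CMD libraries; without it the average was called. The average was also called with sex as labelled (0.53, 0.012) and without libraries 16 and 23. With a sex term Csf1r was called higher in 67 (1.17 by label, 1.201 by Y-linked reads), higher in D2 by label (1.53, also without libraries 16 and 23) and lower in 87 by Y-linked reads (-0.86, 0.042).

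**Figure D4:**
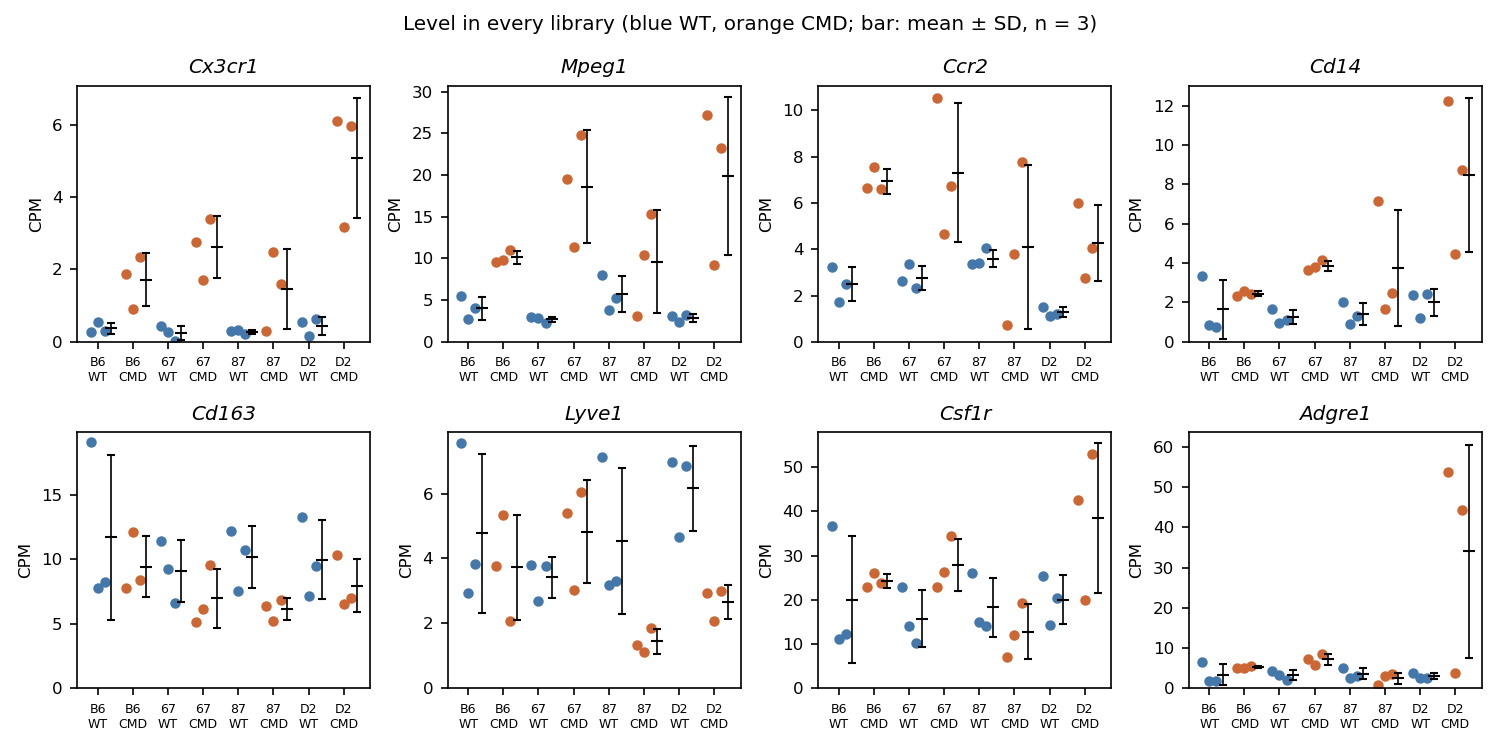
CPM (vertical axis from 0) of 8 of the genes in every library, by group, with WT in blue, CMD in orange and mean ± SD (n = 3) at the right of each group. Cx3cr1 and Mpeg1 were higher in most CMD libraries, Cd163 and Lyve1 were not, and Adgre1 was at 53.8 and 44.4 CPM in 2 D2 CMD libraries and at most 8.45 CPM elsewhere.

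All 3 adhesion and lineage molecules were called higher on average, and 2 of these calls were lost without libraries 22 and 24. Adgre1, the gene of the macrophage surface protein F4/80, was 6.48, 1.88 and 1.89 CPM in B6 WT and 5.06, 5.07 and 5.52 in B6 CMD, 4.37, 3.4 and 2.12 against 7.2, 5.85 and 8.45 in 67, 5.15, 2.48 and 3.15 against 0.865, 2.95 and 3.61 in 87, and 3.8, 2.58 and 2.62 against 53.8, 3.88 and 44.4 in D2. Its D2 log2 fold change was 3.50 ± 0.69 (adjusted p = 0.0023) with these libraries and 0.34 (0.78) without them. The averaged value was 1.18 ± 0.32 (0.0055) with them and 0.38 (0.25) without. Itgam, the alpha chain of the complement receptor CR3, was 22.1 and 19.6 CPM there and 2.65 CPM in library 23, and its D2 value moved from 2.49 to -0.01. Itgb2, the beta chain it pairs with, was called on average (0.98, adjusted p = 0.0020) and stayed called without these libraries (0.58, 0.041).

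Fc receptors bind antibody on phagocytes. All 4 genes of this role were called higher on average, with or without libraries 22 and 24. Fcer1g, the signalling chain the activating receptors share, had a log2 fold change of 1.31 ± 0.25 (adjusted p = 0.00024). The activating Fcgr1 had 1.23 ± 0.34 (0.0055) and Fcgr3 0.89 ± 0.20 (0.0013), and the inhibitory Fcgr2b 0.73 ± 0.20 (0.0050). Fcgr2b and Fcgr3 were called in 67 alone, Fcer1g in 67 and D2, and Fcgr1 in D2 alone.

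Lysosomal and killing genes were all called higher on average, again with or without these libraries. Mpeg1, the pore-forming perforin-2, was 5.44, 2.69 and 4.02 CPM in B6 WT and 9.55, 9.78 and 11 in B6 CMD, 2.93, 2.84 and 2.31 against 19.5, 11.4 and 24.8 in 67, 8.03, 3.78 and 5.25 against 3.09, 10.4 and 15.4 in 87, and 3.11, 2.32 and 3.2 against 27.2, 9.18 and 23.2 in D2. Every CMD library but 16 exceeded the WT libraries of its strain. Log2 fold changes were 1.91 ± 0.23 on average (adjusted p = 2.5e-06), 2.78 ± 0.48 in 67 (0.00068), 2.78 ± 0.47 in D2 (0.00077) and 1.32 ± 0.46 in B6 (0.049), against 0.76 ± 0.45 in 87 (0.24). The B6 call was lost without any 1 of libraries 2 to 6, and the D2 call without 22 and 24 together (0.060). Ctss, the elastin-cutting cathepsin S, had 1.57 ± 0.22 on average (1.3e-05), and Laptm5, a lysosomal membrane protein, 1.08 ± 0.21 (0.00028). Lyz2, macrophage lysozyme, was the most abundant member per length, at 69.8 ± 27.9 TPM over WT (SD, n = 12) and 156 ± 91.3 TPM over CMD libraries (SD, n = 12), and rose by 1.03 ± 0.24 (0.0014). In library 23 Lyz2 was 46.8 CPM, inside the D2 WT range of 28.9 to 50.6 CPM. Its 99.8 TPM there lay above the D2 WT range of 44.1 to 78.6 TPM.

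All 3 pattern and costimulatory receptors rose on average. Cd84, a self-binding receptor of the SLAM family, was 0.571, 0.807 and 0.441 CPM in B6 WT and 1.64, 2.41 and 1.71 in B6 CMD, 0.56, 0.669 and 0.626 against 3.94, 1.9 and 3.1 in 67, 1.62, 0.675 and 0.917 against 0.996, 1.21 and 2.34 in 87, and 0.467, 0.217 and 0.603 against 2.76, 1.11 and 2.25 in D2. The groups did not overlap in B6, 67 and D2. Log2 fold changes were 1.67 ± 0.22 on average (adjusted p = 6.7e-06), 1.66 ± 0.45 in B6 (0.015), 2.26 ± 0.45 in 67 (0.0017) and 2.23 ± 0.45 in D2 (0.0025); the B6 call was lost without library 3 or 5, and the D2 call without 22 and 24 together (0.128). Clec7a, the beta-glucan receptor dectin-1, was called on average (1.10) and in 67 (2.10). Cd86, a costimulatory ligand for T cells, was called on average (0.79, 0.016) but not without libraries 22 and 24 (0.135).

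Small membrane and calcium-binding proteins had the highest median of the roles with 3 or more genes, 1.93, and all 3 were called on average. Aif1, the actin-binding protein IBA1, had 2.06 ± 0.35 (adjusted p = 9.4e-05). The 4-span proteins Ms4a7 and Ms4a6c had 1.93 ± 0.31 (4.9e-05) and 1.49 ± 0.24 (4.7e-05). With libraries 22 and 24 left out the median was 1.58 and all 3 were still called.

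Genes of all leukocytes moved with the myeloid ones. Cd52, a small anchored glycoprotein, was 1.18, 0.658 and 0.856 CPM in B6 WT and 1.83, 3.39 and 2.11 in B6 CMD, 0.32, 0.697 and 0.544 against 2.9, 2.67 and 2.89 in 67, 1.95, 1.03 and 1.27 against 0.367, 1.94 and 3.75 in 87, and 0.645, 0.362 and 0.458 against 8.03, 2.11 and 6.56 in D2. Library 16 was the only CMD library below the WT libraries of its strain. Its log2 fold change was 1.98 ± 0.29 on average (adjusted p = 1.9e-05), 3.50 ± 0.61 in D2 (0.00089) and 2.43 ± 0.60 in 67 (0.0076). The D2 value was 2.08 (0.059) without libraries 22 and 24. Ptprc, the phosphatase CD45, had 1.04 ± 0.23 (0.0011), the tetraspanin Cd53 1.10 ± 0.27 (0.0021) and the actin regulator Coro1a 1.11 ± 0.23 (0.00061) on average. Of the transcription factors, Spi1 had 1.06 ± 0.27 (0.0034; 0.075 without libraries 22 and 24) and Irf8, which directs monocyte development, 0.33 ± 0.14 (0.056).

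Tests of the difference between strains gave few members. By the F test of the CMD effect over the 4 strains, 0 members passed in edgeR (4.67% of all genes), with 14 at an unadjusted p under 0.05 and 7 after adjustment in DESeq2; the smallest adjusted p were 0.056 for Adgre1, 0.077 for Lyve1 and 0.094 for Mpeg1. D2 against 87 gave 5 members (7.9% of all): Adgre1, Cd52, Ms4a6c, Coro1a and Itgb2. Without libraries 22 and 24 edgeR gave 0, with adjusted p from 0.355 to 0.619 for these 5. The other pairs gave 0 members in edgeR: 67 against B6 (0.00676% of all genes; 2 unadjusted, 0 in DESeq2), 87 against B6 (0.00676%; 5 and 0), D2 against B6 (3.62%; 6 and 1), 87 against 67 (0.142%; 19 and 1) and D2 against 67 (1.28%; 3 and 0). Pairs that involve D2 share its libraries.

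Levels among the CMD groups differed for 9 of the 38 members (23.7%), a smaller share than over all genes (28.3%). The 9 were Adgre1, Itgam, Spi1, Lyve1, Itgb2, Ms4a6c, Laptm5, Irf8 and Coro1a. The adjusted p were 0.0013 for Adgre1, 0.0089 for Itgam and 0.017 for Lyve1. D2 CMD had the highest mean for 8 of them, and Lyve1, lowest in 87 CMD, was the exception. Leaving out libraries 22 and 24 left 1 member, Lyve1 (0.049); without library 22 or library 24 alone there were 2, without 16 or 17 there were 5, without 23 there were 18 and without 18 there were 21. With a sex term the count was 26 by label and 25 by Y-linked reads. The share over all genes is not given for these settings, so their counts do not show a difference particular to the members. Among the WT groups 0 members differed in edgeR (8.66% of all genes), with 2 at an unadjusted p under 0.05 and 0 in DESeq2. The members closest to the threshold there were Cd52 (adjusted p = 0.21), Cd84 (0.21), Ccl9 (0.22) and Ccr2 (0.24).

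Within each WT group 1 library was highest for most members. The same count over all genes is not given, so this is not shown to be particular to the members. Library 1 was highest of B6 WT for 36 of 38 members, library 7 of 67 WT for 29, library 13 of 87 WT for 35 and library 19 of D2 WT for 24. Each of these is labelled male. Over the 12 WT libraries, 8 members (Csf1r, Itgam, Lyz2, Cd14, Cd86, Folr2, F13a1 and Spi1) were higher in all 5 labelled male than in all 7 labelled female, as were 1.24% of all tested genes. F13a1 was 20.3 to 34.8 CPM in the 5 and 8.25 to 14.6 CPM in the 7. Y-linked reads contradict the label of libraries 19 and 21, and no sex effect was tested. In B6 CMD the highest library for 29 members was 5, labelled female. In B6 WT the ratio of resident to infiltrating markers was 10.2 in library 1 and 8.90 and 11.5 in libraries 2 and 3.

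Genes around the members, from lists by pathway, mostly moved the same way on average. Of all tested genes, 25.4% were called higher and 23.4% lower. All 11 genes on the list of activating receptors and the control of their signalling were called higher, with a median log2 fold change of 0.82. Inpp5d, a lipid phosphatase, had 0.82, and Fcgr4, an Fc receptor, 2.54. Of the 11, 7 were still called without libraries 22 and 24. Among 12 other chemokines tested, 9 were higher and 1, the eosinophil attractant Ccl24, lower (-1.27). Cx3cl1, the ligand of CX3CR1, had 3.08 ± 0.24 (adjusted p = 1.8e-08), Cxcl16 1.74 ± 0.18 (3.3e-07) and Cxcl10 3.71 ± 0.44 (2.0e-06). Cx3cl1 was called in each strain, with 2.12, 4.33 and 2.54 CPM in B6 WT and 20.5, 22.3 and 11.5 in B6 CMD.

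Of 7 other chemokine receptors, 4 were higher, among them Ccr7 (1.94). The growth factors that act on CSF1R did not pass: Csf1 had 0.01 (adjusted p = 0.96) and Il34 0.04 (0.86), while the receptor chains Csf2ra and Csf2rb, for another growth factor, were the 2 of 4 called higher. Of 11 phagocytosis genes tested, 8 were higher, with Lgals3, a galectin, at 2.17, Cd68, a lysosomal glycoprotein, at 1.90 and Trem2, a lipid receptor, at 2.19. The 1 lower was Timd4 (-1.09, 0.022), a receptor of long-lived resident macrophages. Of 9 cytokine and polarisation genes tested, 6 were higher, including Il1rn, the interleukin 1 receptor antagonist (5.01), and Ptgs2, a prostaglandin synthase (2.05), and 1 lower, Retnla (-1.52, 0.0017), a gene of alternative activation. Of 9 myeloid transcription factors, 4 were higher, with Runx1 at 3.55, and 2 lower, Maf (-1.46, 1.2e-05), linked to resident macrophages, and Nr1h3 (-0.34). These 9 summed to 301 to 465 CPM in WT libraries, where the 5 resident markers summed to 31.0 to 103 CPM. Which cells held the transcription factors was not tested. Genes named because they fell were chosen after their values were seen.

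Markers of other cell types were counted in the same average effect, where 25.4% of all tested genes were called higher and 23.4% lower. All 6 tested T cell genes were higher on average (Cd3g 3.02, Cd4 1.74), from a summed 0.707 to 2.12 CPM over the WT to 1.39 to 6.46 CPM over the CMD libraries. Of 6 dendritic cell genes 4 were higher, Itgax most (2.14), a gene that macrophages share. All 5 neutrophil genes tested were higher, but the summed level of the 10 on the list was at most 16.9 CPM, and Ly6g, which defines the cell, was at most 0.0262 CPM. The summed eosinophil genes were at most 0.320 CPM. Of 5 tested B and plasma cell genes 0 were called on average in edgeR (1 at an unadjusted p under 0.05), and their sum was 79.7 and 62.8 CPM in libraries 22 and 24 against at most 10.5 CPM elsewhere. Of 7 mast cell genes 1 was higher (Hdc 1.04) and 1 lower (Cpa3 -0.64). Of 2 natural killer genes tested 0 were called in edgeR (1 at an unadjusted p under 0.05). Of the structural lists, 1 of 6 lymphatic genes (Pdpn), 1 of 6 blood vessel genes (Cldn5), 2 of 6 fibroblast genes (Col1a1, Lum), 2 of 2 tested platelet genes (Itga2b, Ppbp) and 0 of 5 red cell genes were called higher, and of 8 muscle fibre genes 3 were higher and 4 lower. With 6 or 7 genes each, the mast, lymphatic, blood vessel and fibroblast counts show no change particular to those cells. With libraries 22 and 24 left out, fewer T cell, dendritic, mast, blood vessel and fibroblast genes were called higher in edgeR. The share over all genes fell as well. The part of these cells in the level of the shared genes was not tested.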

How the data were processed

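Per the labels' protocols, an Illumina Stranded mRNA kit was used on TRIzol RNA, with paired reads of 58 bases. The genome build was GRCm39 (mm39), per the submitters' processing notes. Aligner and counter: not given in the sources used here. Deposited tables give, per gene, total and unique exon read counts, and TPM and RPKM values computed by the authors. Total exon counts were tested. The authors' TPM, which carries no TMM scaling, served for levels between genes, for the marker sums and their ratio, and for Lyz2 between genotypes. Their RPKM was not used. Groups came from the labels.

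Genes were kept by filterByExpr (minimum count 10, by group), scaled by TMM and fitted by edgeR 4.0.16 (R 4.3.3, limma 3.58.1) quasi-likelihood with 1 mean per group over all 24 libraries and no sex term. P-values were adjusted by Benjamini-Hochberg over all 14789 genes, and calls are at 0.05. Fold changes are log2 of CMD over WT, and SE is the log2 fold change divided by the square root of F. The procedure was tested on simulated data. Alternatives were DESeq2 1.42.0, RLE size factors, no filter, unique reads, sex by label or by Y-linked reads, strain libraries only, a log2 fold change of at least 1, and libraries left out; leaving out 22 and 24 together was chosen after seeing the data.

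The members and gene lists were chosen with earlier results of these data known. Values of every library were given for the 8 resident and infiltrating markers, the 3 members with the smallest p on average and in each strain, and the 4 with the smallest p for WT level; Adgre1 and Csf1r were added after their values were seen. Up to 3 genes per other list were named by smallest p.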

Additional observations from a re-analysis of the deposited data

Results flagged for a closer look

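The CMD effect was larger in D2 than in 87 for 5 members (13.2%), by a test of the difference itself in edgeR, with adjustment over all genes. In the same test 7.9% of all genes were called, in either direction. Adgre1 differed by 4.03 ± 0.94 (log2, SE; adjusted p = 0.012), with 3.50 in D2 and -0.53 in 87. Cd52 differed by 2.98 ± 0.80 (0.028), with 3.50 and 0.52. For Ms4a6c the difference was 2.40 ± 0.67 (0.032), with 2.49 and 0.09. Coro1a gave 2.28 ± 0.66 (0.038), from 2.28 and 0.01, and Itgb2 gave 2.29 ± 0.67 (0.041), from 2.16 and -0.13. Without libraries 22 and 24 the differences were 0.90, 1.57, 0.77, 0.93 and 0.71 in the same order of genes, and none of the 5 was called. Groups of 3 are too small for a test of single outlying libraries.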

How the results depend on the processing

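No paired analysis was possible because libraries of different groups share no replicate number. Leaving out 1 library at a time gave 0 to 19 higher members in B6, 9 to 24 in 67, 0 to 2 in 87, 14 to 24 in D2 and 28 to 33 on average, and 0 to 2 lower in 87, 0 to 1 in D2 and 1 to 3 on average. It gave 0 to 6 members whose effect differed among strains, 0 to 1 for D2 against 67, 1 to 17 for D2 against 87, 0 to 2 for WT level and 2 to 21 for CMD level. Over the same fits, the share of all genes called higher was 3.33% to 11.5% in B6 and 6.45% to 14.2% in 67. In 87 it was 6.46% to 14.1%, in D2 4.99% to 13.6% and on average 22.8% to 26.1%. For lower members and strain differences the share is not given, so those counts do not show a change particular to the members. The log2 difference in the resident to infiltrating ratio was -1.74 to -1.39 in B6, -2.12 to -1.52 in 67, -2.48 to -1.56 in 87 and -2.39 to -2.04 in D2.

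With sex as labelled, the counts were 3 lower in 87, 0 lower in D2, 1 lower on average, 11 for the effect among strains, 26 for CMD level and 22 for D2 against 87. With sex from Y-linked reads they were 4 lower in 87, 4 for the effect among strains, 25 for CMD level and 8 for D2 against 87. Without libraries 16 and 23 they were 16 higher in B6, 2 higher in 87, 0 lower in D2, 1 lower on average, 7 for the effect among strains, 2 for D2 against 67, 3 for WT level, 15 for CMD level and 12 for D2 against 87. Without libraries 22 and 24 they were 1 higher and 0 lower in D2, 1 for CMD level and 0 for D2 against 87; the D2 ratio difference was -1.83, and Itgam in D2 went to -0.012. DESeq2 gave 16 higher in B6, 2 higher in 87, 7 for the effect among strains, 15 for CMD level and 13 for D2 against 87. With strain libraries only, 87 had 0 higher and 0 lower, where 1.88% of all genes were called higher. With a log2 fold change of at least 1 asked for, 0 were lower on average. Most counts in this paragraph are given without the share over all genes, so they do not show a change particular to the members. The causes of these changes were not tested. RLE size factors, no filter and unique reads kept these counts within 1.5 times.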

Other observations

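Gpnmb, a transmembrane glycoprotein of phagocytes on the phagocytosis list, was low in every D2 library. It was 0.2, 0.0483 and 0.458 CPM in D2 WT and 0.48, 0.389 and 1.6 in D2 CMD, below each of the other 18 libraries, which held at least 2.31 CPM. Its log2 fold change on average was 1.60 ± 0.35 (edgeR, adjusted p = 0.00089).

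Library 16, the 87 CMD library lowest for 30 of the 38 members, was the highest of all 24 for Gpnmb and for Cd68, a lysosomal glycoprotein. Values in 87 CMD were 30, 3.79 and 6.85 CPM for Gpnmb and 38.7, 4.04 and 10.5 CPM for Cd68. Cd68 was called higher in 87 (2.44 ± 0.59, adjusted p = 0.0072), where 1 of the 38 members was. These genes were chosen after their values were seen, and no cause was tested.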
